A study of Mus musculus with 4 samples.

Results

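The club cell secretoglobins measured here were Scgb1a1, Scgb3a1 and Scgb3a2, 3 of the 32285 genes counted in single-cell RNA-sequencing libraries of mouse lung. They were found by their symbols in the gene list, and all 3 were present. Scgb1a1 (ENSMUSG00000024653) lies on the minus strand of chromosome 19 at chr19:9083636-9087958 in GRCm38 and has 3 exons. Scgb3a1 (ENSMUSG00000064057) lies on the plus strand of chromosome 11 at chr11:49663610-49665118 and also has 3 exons, and Scgb3a2 is ENSMUSG00000038791. The genes were chosen by measured values: their high counts in a few airway cells, their low level in every cell type, and the higher low level in tumor-bearing lung. Their level in each cell type and their difference between tumor-bearing and normal lung are therefore given below as a description, with no test.

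Lungs came from mice in 4 groups: wild-type (WT) normal, WT bearing B16/F10 tumors, LAIR1KO normal, and LAIR1KO bearing B16/F10 tumors. B16/F10 is a mouse melanoma cell line, and LAIR1 is an inhibitory collagen receptor of immune cells that the LAIR1KO genotype lacks; the labels used here give no age, route of tumor delivery or tissue preparation. Each group was 1 library with cells of 3 animals, told apart by hashtag antibodies, so library and group cannot be told apart and p-values over the 3 hashtags do not cover the spread between cell suspensions. In each droplet library a count is a unique molecular identifier (UMI), 1 captured RNA molecule under 1 cell barcode.

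The libraries held 16350 barcodes, of which 15793 passed the filters on gene number and mitochondrial share, 3100 to 4586 in a library, with a median of 4828 to 7187 UMIs. A single hashtag was called in 8468 of them. In interstitial macrophage-like cells Lair1, the deleted gene, had 410 and 802 UMIs in the WT libraries and 2 and 0 in the LAIR1KO libraries. The female transcript Xist was at 0.003 per 10000 UMIs in the WT normal library and at 10.9 to 12.4 in the other 3, and the Y-linked Ddx3y was at 1.97 against at most 0.003, so the WT normal library differed from the other 3 in sex as well. Libraries shared 30 barcode sequences between them. Cell names with "-like" were rebuilt from marker genes, and a difference from the study's own cell types may come from that.

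Secretoglobins are small secreted proteins of the airway lining. Club cells, the domed non-ciliated secretory cells of the bronchioles, make SCGB1A1 (also called CC10 or uteroglobin) as their main product and release it into the airway fluid, where it is known as an anti-inflammatory protein. SCGB3A2 is made by bronchiolar club cells and SCGB3A1 mainly by secretory cells of the larger airways, and the transcription factors NKX2-1, FOXA1, FOXA2 and the C/EBP family are known to switch on these genes. In droplet sequencing, RNA that leaks from broken cells enters every droplet, so very abundant transcripts of fragile cells are a familiar source of low counts in cells that do not make them.

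Scgb3a1 is the member that split the club cell-like barcodes, and its upstream sequence is shown for that reason. RefSeq's promoter table for GRCm38.p6 matched 1 of the 3 members, and the 250 bases before RefSeq's Scgb3a1 start are chr11:49663345-49663594 on the plus strand. RefSeq's start is the base after that window and lies slightly upstream of the gene start given above, and distances are counted from it.
Scgb3a1 promoter: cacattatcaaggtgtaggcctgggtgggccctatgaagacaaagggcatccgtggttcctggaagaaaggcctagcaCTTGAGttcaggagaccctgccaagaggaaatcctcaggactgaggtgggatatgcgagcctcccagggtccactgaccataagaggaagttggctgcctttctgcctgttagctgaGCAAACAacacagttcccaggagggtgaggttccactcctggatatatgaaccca
Capitals mark the matches to 2 of 3 searched motifs. The FOXA motif TGTTTNC matched once, on the minus strand, starting 55 bases before the gene start, and 17.8% of 32851 promoters of the same length held it on either strand. The NKX2-1 motif CTCAAG matched once on the minus strand, 172 bases before the start, and was in 13.3% of promoters. The C/EBP motif TTGCNNAA had 0 matches in this window, against 9.56% of promoters with at least 1. The matches did not overlap each other.

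Most secretoglobin RNA sat in very few barcodes. Taking a barcode as a source when the 3 genes together had at least 100 UMIs gave 80 source barcodes among those that passed: in normal lung 10 came from WT and 12 from LAIR1KO, and in tumor-bearing lung 31 came from WT and 27 from LAIR1KO. These barcodes held between 94.999% and 97.2% of a library's Scgb1a1 UMIs. The highest barcode outside the rule had 91 UMIs and the lowest inside had 100. There were 10 barcodes between 50 and 100 UMIs, 14 between 100 and 500, and 66 with 500 or more, so most source barcodes were far above the threshold.

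Of the 80 source barcodes, 57 were club cell-like, 14 were alveolar type 2 cell-like and 3 were ciliated cell-like. The remainder were 2 fibroblast-like, 2 interstitial macrophage-like and 2 unnamed barcodes. The interstitial macrophage-like one in WT tumor-bearing lung had 15565 Scgb1a1 and 301 Scgb3a2 UMIs, and the 3 genes made up 63.7% of its UMIs. It also had 30 Cyp2f2 and 60 Cbr2 UMIs. A LAIR1KO normal ciliated cell-like barcode had 29141 Scgb1a1 UMIs. Both carried a single hashtag, and whether each is 1 cell was not tested. Club cell-like barcodes made up 0.194% of WT normal barcodes (95% exact binomial interval 0.0711 to 0.421) and 0.559% of WT tumor-bearing ones (0.359 to 0.831). For LAIR1KO the shares were 0.157% in normal (0.0577 to 0.342) and 0.458% in tumor-bearing lung (0.284 to 0.699). The intervals overlap between normal and tumor-bearing lung in both genotypes, cover counting error only, and rest on 6, 24, 6 and 21 barcodes. Ciliated cell-like barcodes, the neighbours of club cells in the airway lining, numbered 4, 17, 8 and 22 in the same order, so both airway classes had more barcodes in the tumor-bearing libraries.

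Scgb1a1 was the main transcript of every club cell-like barcode group. In WT its median was 6952.5 UMIs per barcode in normal (range 823 to 12775) and 7320.5 in tumor-bearing lung (1414 to 19284). In LAIR1KO it was 15758 in normal (8782 to 44903) and 8773 in tumor-bearing lung (2763 to 26872). The 4 ranges overlap, and the LAIR1KO normal barcodes were also the deepest, with a median of 26925.5 UMIs against 10079 to 13926 elsewhere. As a share of the barcode's UMIs the median was 61.3% and 65.4% in WT and 57.9% and 71.2% in LAIR1KO, normal first, so the high LAIR1KO normal counts did not come with a high share.

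Scgb3a2 was present in all 57 club cell-like barcodes, at a much lower count than Scgb1a1. Its median was 38.5 UMIs in normal (range 23 to 634) and 121.5 in tumor-bearing WT lung (1 to 525), and 159.5 (43 to 2806) and 144 (23 to 1744) in the LAIR1KO pair. These ranges overlap across all 4 libraries.

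Scgb3a1, by contrast, was absent from nearly all club cell-like barcodes and abundant in a handful. The WT normal library had 1 barcode with 1965 UMIs, the LAIR1KO normal library had barcodes with 2454 and 1550, and the LAIR1KO tumor-bearing library had barcodes with 605 and 510. The WT tumor-bearing library, with 24 club cell-like barcodes, had no such barcode, and its highest held 11 UMIs. One further LAIR1KO normal barcode had 1 UMI, and the other 50 club cell-like barcodes had none. Outside this class 2 barcodes were high for the gene: a LAIR1KO normal ciliated cell-like one with 103 Scgb3a1 and 11 Scgb1a1 UMIs, and a LAIR1KO tumor-bearing interstitial macrophage-like one, itself a source barcode, with 68 and 279.

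**Figure D1:**
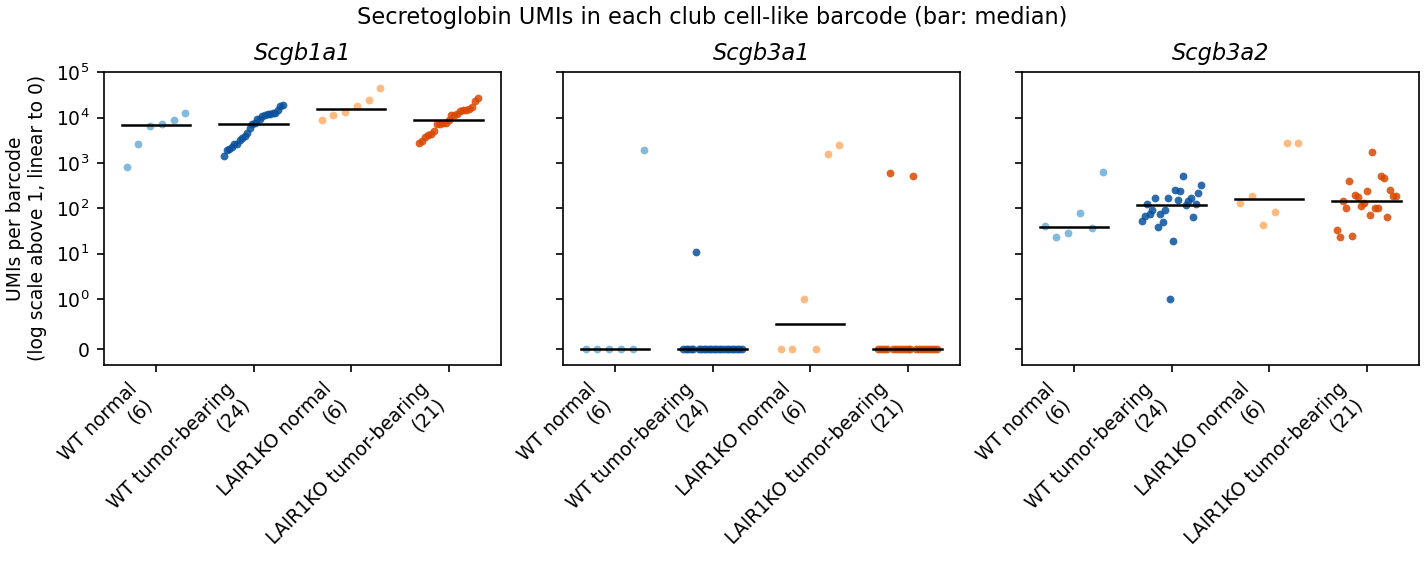
Secretoglobin UMIs in each of the 57 club cell-like barcodes, by library, on an axis that is logarithmic above 1 and linear down to 0; the number of barcodes is under each library and the black bar is the median. Scgb1a1 lies between 823 and 44903 in every barcode, Scgb3a2 is in every barcode at a lower count, and Scgb3a1 is at 510 or more in 5 barcodes and at 11 or fewer in the rest.

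The 5 Scgb3a1-high barcodes carried other genes of the larger airways and glands that were near 0 in the 52 other club cell-like barcodes. The groups were split on Scgb3a1 and the genes belong to the same clustered cells, so the values are a description. Bpifa1, which encodes the airway surface protein SPLUNC1, was at 152 per 10000 UMIs against 0. The related Bpifb1 was at 28.8 against 0.029, the gel-forming mucin Muc5b at 12.8 against 0.044, and the antibacterial lectin Reg3g at 28.99 against 0. Tff2, a trefoil peptide of mucous cells, was at 14.8 against 0.015, and Ltf, the iron-binding protein lactoferrin, at 3.90 against 0.015. Of the 85 Ltf UMIs in the 5 barcodes, 62 were in 1 barcode.

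Genes of the bronchiolar club cell were on in both sets. Cyp2f2, a club cell cytochrome P450, was at 57.3 per 10000 in the Scgb3a1-high barcodes and 43.0 in the others, and the carbonyl reductase Cbr2 was at 34.5 against 56.9. Scgb3a2 was at 383 against 104, and Scgb1a1 at 4508 against 6918. Scgb1c1, another secretoglobin, went the other way: 0 of the 5 Scgb3a1-high barcodes had a UMI, against 42 of the other 52 (0 against 3.69 per 10000).

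Among the listed regulators, the epithelial factor Elf3 was at 1.70 per 10000 in the Scgb3a1-high barcodes against 0.102 in the others. Foxa1 was at 0.688 against 0.145, and Cebpd at 1.01 against 0.175. In the Scgb3a1-high set 1 barcode held 30 of the 37 Elf3 UMIs, and 1 barcode held 19 of the 22 Cebpd UMIs. Nkx2-1 was at 0.780 against 0.727, Foxa2 at 0.505 against 0.291 and Cebpa at 0.505 against 0.684. The Scgb3a1-high barcodes were deeper, with a median of 28945 UMIs against 12497.5, and they came from 3 of the 4 libraries. The part of depth in these differences was not tested.

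Beyond the 3 members, the genes most abundant in the source barcodes among those at least 10 times higher there than elsewhere were airway genes. Cyp2f2 led with 39.4 per 10000 against 0.188 in other barcodes, followed by Bpifa1 (26.2 against 0.00973) and Reg3g (4.98 against 0.00251). The glutathione-handling enzymes Gsto1 and Gsta4 were at 3.97 against 0.238 and at 2.25 against 0.169. Bpifb1, Lypd2, Tff2, Scgb1c1 and Muc5b completed the list, between 2.24 and 4.95 per 10000 in the source barcodes.

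Scgb1c1 was the only one of the 31 other secretoglobin genes with any UMI, and 30 had none in these libraries. It had 1589 UMIs in 858 barcodes, of which 254 were in 42 club cell-like barcodes and 1301 lay outside the source barcodes. Scgb1a1, by comparison, had 654817 UMIs, of which 573938 were in club cell-like barcodes and 21366 outside the source barcodes.

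Nearly all club cell-like barcodes lacked a hashtag: 54 of 57 had no call, and the other 3 were all Scgb3a1-high. Their median hashtag count was 10 UMIs, against 178 in all other barcodes and 40 in other barcodes with no hashtag. Source cells could therefore not be counted per animal, and the values of source cells above are per library, with no replicate check. Scrublet, a doublet caller, marked 1 of the 80 source barcodes.

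Among alveolar type 2 cell-like barcodes, 14 met the source rule, with Scgb1a1 between 100 and 3751 UMIs (median 314.5), well below the club cell-like medians. Alveolar type 2 cells make surfactant and sit in the alveoli, and cells at the junction of bronchiole and alveolus are known to carry both surfactant protein C (Sftpc) and Scgb1a1. With a threshold of 50 Scgb1a1 UMIs there were 19 such barcodes, 4, 6, 7 and 2 in the 4 libraries. Their median Sftpc was 1584 UMIs, against 1304.5 in the 1204 barcodes with fewer than 10 Scgb1a1 UMIs. Per 10000 UMIs Sftpc was at 1212 against 1386, lower in the 19, which were deeper, with a median of 13478 UMIs against 9322. Cyp2f2 had a UMI in 17 of the 19 (14.9 per 10000, against 0.422 in the 1204), while Scgb3a2 was in 6, Gabrp in 4 and Cldn10 in 3. Whether each is 1 cell or a club cell and a type 2 cell in 1 droplet was not tested.

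Outside the source barcodes Scgb1a1 was present in every cell class. Over all such barcodes its level per 10000 UMIs was 0.903 in normal and 2.25 in tumor-bearing WT lung, and 1.67 and 3.41 in LAIR1KO lung. A UMI was found in 32.6% and 61.9% of WT barcodes and in 54.0% and 69.5% of LAIR1KO barcodes, normal first. Immune cells, which are not known to make this gene, carried it too: in neutrophil-like cells the level was 0.824, 3.93, 2.09 and 5.14 per 10000 in the same order.

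Within 1 library the level varied between classes. Leaving out the airway and alveolar type 2 cell-like classes, the 8 classes with at least 20 cells in WT normal lung ran from 0.426 per 10000 in T cell-like to 0.939 in interstitial macrophage-like cells. In LAIR1KO normal lung 8 classes ran from 1.01 (endothelial cell-like) to 2.46 (monocyte-like). In WT tumor-bearing lung 12 classes ran from 1.54 (fibroblast-like) to 4.10 (monocyte-like), and in LAIR1KO tumor-bearing lung 12 ran from 1.62 (pericyte or smooth muscle cell-like) to 5.23 (monocyte-like). Monocyte-like and then neutrophil-like cells were the highest of these classes in every library but WT normal, where interstitial macrophage-like cells were highest. These values include barcodes with hashtags of 2 animals. Over all libraries such barcodes made up 59.4% of the monocyte-like class and 6.59% to 74.6% of the neutrophil-like clusters. Their part in this order was not tested.

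**Figure D2:**
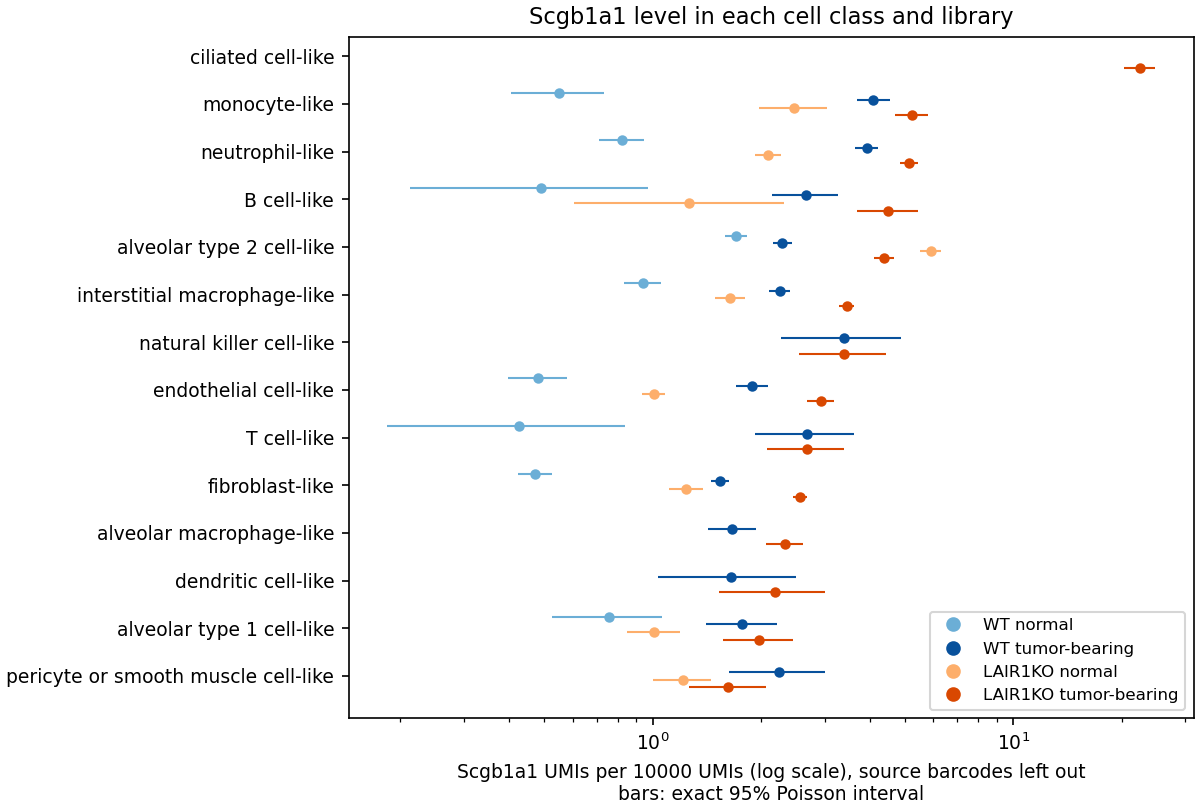
Scgb1a1 level outside the source barcodes in each cell class with at least 20 cells, in UMIs per 10000 UMIs on a log axis; points are the 4 libraries and bars are exact 95% Poisson intervals, for counting error only. Within a class the LAIR1KO tumor-bearing or WT tumor-bearing point is the farthest right except in alveolar type 2 cell-like cells, and ciliated cell-like cells stand apart at 22.4.

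The level per 10000 UMIs fell with depth and the count per barcode rose with it. The barcodes of the immune, endothelial and stromal classes outside the source set, 2415 in WT normal and 3833 in LAIR1KO tumor-bearing lung, were split by depth into 4 sets of near-equal size. From the shallowest to the deepest set WT normal went from 1.23 to 0.555 per 10000 and from 0.217 to 0.762 UMIs per barcode. LAIR1KO tumor-bearing went from 7.497 to 2.45 and from 1.06 to 2.50. Neutrophil-like cells were the shallowest class in WT normal lung, with a median of 2073 UMIs, so the order of classes on the per 10000 scale moves with depth. With each barcode thinned to 2000 UMIs, shallower barcodes left out, the share with a Scgb1a1 UMI in WT normal lung ran from 8.09% in fibroblast-like to 23.9% in alveolar type 2 cell-like cells, against 12.8% to 61.2% unthinned over the same 9 classes.

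Alveolar type 2 and ciliated cell-like cells were the 2 classes with a tail of high counts. At least 10 Scgb1a1 UMIs were found in 21 of 48 ciliated cell-like barcodes outside the source set (43.8%) and in 64 of 1268 alveolar type 2 cell-like barcodes (5.05%). Among neutrophil-like barcodes 17 of 3430 reached 10 (0.496%), and among natural killer cell-like barcodes 0 of 116 did. In alveolar type 2 cell-like cells the tail was 4.21% and 1.32% in WT normal and tumor-bearing lung, and 17.7% and 7.75% in the LAIR1KO libraries.

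Scgb3a1 and Scgb3a2 were also found outside the source barcodes, at counts near the limit of detection. Scgb3a1 had 43, 21, 127 and 71 UMIs in the 4 libraries (WT normal, WT tumor-bearing, LAIR1KO normal, LAIR1KO tumor-bearing) and Scgb3a2 had 37, 97, 122 and 216. At least 1 Scgb3a1 UMI was in 1.26%, 0.469%, 3.00% and 1.27% of these barcodes, and at least 1 Scgb3a2 UMI in 0.841%, 1.95%, 3.08% and 3.97%. Scgb3a1 was lowest in WT tumor-bearing lung, the library with no Scgb3a1-high barcode.

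The mix of the 3 members was compared between source cells and cells that are not known to make them. As a share of the 3 genes' UMIs in club cell-like barcodes, Scgb3a1 made up 4.71%, 0.00565%, 3.05% and 0.487% in the order above. In immune, endothelial and stromal classes outside the source barcodes it made up 2.98% (95% exact binomial interval 2.05 to 4.18), 0.370% (0.207 to 0.610), 3.38% (2.71 to 4.16) and 0.816% (0.612 to 1.07). Both sets of shares were above 2% in the normal libraries and below 1% in the tumor-bearing libraries. The club cell-like share lay outside the interval of the other set in every library but LAIR1KO normal. Scgb3a1 also differed between the pooled classes. Per 10000 UMIs endothelial cell-like cells were at 0.0603, 0.0426, 0.0637 and 0.148 in the same order. Fibroblast-like cells were at 0.00998, 0.00139, 0.0530 and 0.00803, and neutrophil-like cells at 0.0127, 0.00524, 0.0324 and 0.0179. With the 5 Scgb3a1-high barcodes left out, the club cell-like share was 0%, 0.00565%, 0.00191% and 0%.

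In alveolar type 2 cell-like cells outside the source set the Scgb3a1 share was lower than in the immune, endothelial and stromal classes of the normal libraries: 0.127% in WT normal and 0% in LAIR1KO normal, with intervals up to 0.706% and 0.447%. For Scgb3a2 the club cell-like share was 2.02%, 1.73%, 4.57% and 2.31%. In the immune, endothelial and stromal classes it was 1.40% (0.784 to 2.29), 1.70% (1.33 to 2.15), 3.18% (2.53 to 3.94) and 2.40% (2.04 to 2.80). LAIR1KO normal had the highest Scgb3a2 share in both sets.

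**Figure D3:**
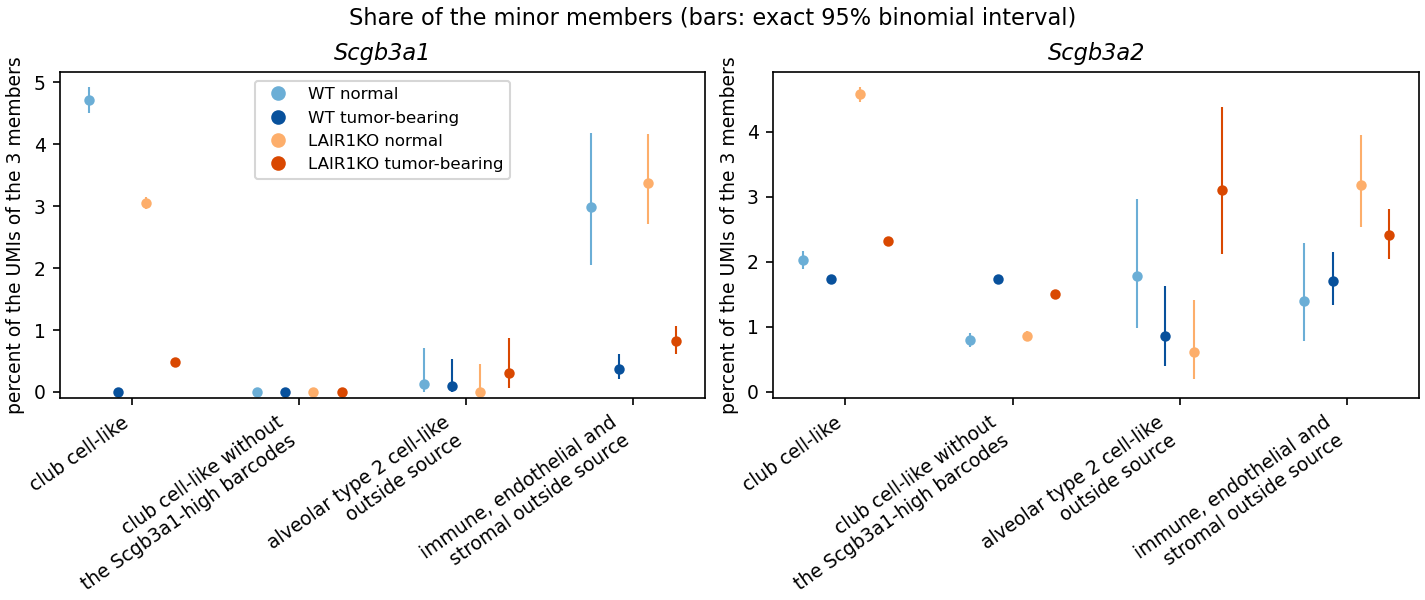
Share of Scgb3a1 (left) and Scgb3a2 (right) in the summed UMIs of the 3 genes, in percent, for 4 sets of barcodes and 4 libraries; bars are exact 95% binomial intervals, for counting error only. Scgb3a1 is above 2% in the club cell-like barcodes and in the immune, endothelial and stromal classes of both normal libraries, near 0 in club cell-like barcodes without the 5 Scgb3a1-high ones, and below 1% in both sets of the tumor-bearing libraries.

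The tumor difference in Scgb1a1 was seen in nearly every class. Summed over each library outside the source barcodes, the tumor-bearing level per 10000 UMIs was 2.49 times the normal level in WT (95% counting interval 2.37 to 2.62) and 2.04 times in LAIR1KO (1.96 to 2.11). In WT all 9 classes with at least 20 cells in both libraries were higher, from 1.34 times in alveolar type 2 cell-like to 7.43 times in monocyte-like cells (median 3.92). Of 4078 genes compared the same way, 1.05% were higher in 9 of 9 classes. In LAIR1KO 8 of 9 classes were higher, up to 3.57 times in B cell-like cells (median 2.10), and of 4200 genes 4.38% were higher in at least 8 of 9. The exception was alveolar type 2 cell-like cells, at 0.743 times (0.676 to 0.816). Per cell rather than per 10000 UMIs, 8 of 9 classes were higher in WT and 7 of 9 in LAIR1KO. The library sums keep barcodes with hashtags of 2 animals, which made up 59.4% of the monocyte-like class over all libraries.

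**Figure D4:**
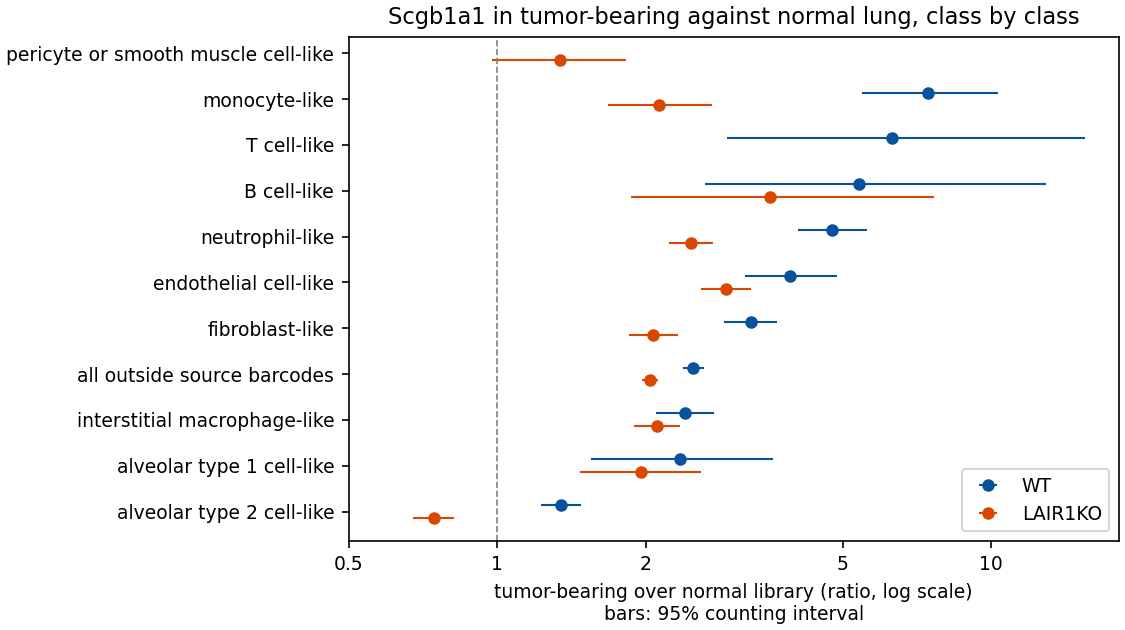
Ratio of the tumor-bearing to the normal library in Scgb1a1 UMIs per 10000 outside the source barcodes, by cell class, on a log axis, with 95% counting intervals; the dashed line marks a ratio of 1. All WT points lie right of the line, and in LAIR1KO the alveolar type 2 cell-like point lies left of it at 0.743.

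The other members had fewer classes with counts to compare. Scgb3a2 was higher in the tumor-bearing library in 4 of 5 WT classes and 8 of 9 LAIR1KO classes that had UMIs to compare. Scgb3a1 was higher in 1 of 6 and 2 of 7, and the WT class, alveolar type 2 cell-like, had 1 UMI in each library. Classes with 0 UMIs in a library were left out. In LAIR1KO the counting interval lay above 1 in endothelial cell-like cells (2.32 times, 1.38 to 3.83). It lay below 1 in fibroblast-like cells (0.151 times, 0.0481 to 0.413). No share over all genes was counted for these 2 members. Sftpc, the most abundant type 2 cell transcript, was higher in 2 of 9 WT and 8 of 9 LAIR1KO classes.

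Per animal, over all cells with 1 hashtag and without the source barcodes, Scgb1a1 was at 0.737, 0.940 and 0.869 per 10000 UMIs in WT normal and at 1.92, 2.09 and 1.98 in WT tumor-bearing lung. It was at 1.34, 1.46 and 1.65 in LAIR1KO normal and at 3.39, 3.22 and 3.14 in LAIR1KO tumor-bearing lung. The 4 groups did not overlap: WT normal animals were lowest and LAIR1KO tumor-bearing animals highest. Tumor-bearing animals lay wholly above normal ones for 10.3% of all genes in WT and 17.6% in LAIR1KO. Means were 0.849 ± 0.103, 1.996 ± 0.0864, 1.48 ± 0.152 and 3.25 ± 0.128 (SD, n = 3 each) in the order WT normal, WT tumor-bearing, LAIR1KO normal, LAIR1KO tumor-bearing. By these unscaled means the tumor difference was 2.35 times in WT and 2.19 times in LAIR1KO. The TMM-scaled log2 fold changes were 1.17 ± 0.14 and 1.24 ± 0.14 (SE, edgeR), so which genotype had the larger difference depended on the scaling.

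The genotype comparison asks whether the level outside the source cells differed between LAIR1KO and WT lung of the same state, which played no part in the choice of genes. By unscaled means Scgb1a1 was 1.75 times higher in LAIR1KO than in WT normal lung. The TMM-scaled log2 fold change was 0.67 ± 0.14 (SE), with an adjusted p of 0.0513 in edgeR's quasi-likelihood test with Benjamini-Hochberg adjustment. In tumor-bearing lung it was 1.63 times higher by unscaled means, and the TMM-scaled log2 fold change was 0.73 ± 0.13 with an adjusted p of 0.736 by edgeR. Neither passed 0.05. Over all 13238 genes tested 0.718% passed in normal lung (95 genes) and 0.00755% in tumor-bearing lung (1 gene). The unadjusted p of Scgb1a1 in tumor-bearing lung was 0.000171 by edgeR, and 778 genes were under an unadjusted 0.05. By DESeq2 Scgb1a1 passed in both states, with adjusted p of 0.000861 in normal and 0.00167 in tumor-bearing lung; over all alternatives the adjusted p ran from 0.000861 to 0.133 and from 0.00167 to 1. Animals did not overlap in either comparison, as was the case upward for 14.8% and 4.55% of genes. The exact two-sided permutation p was 0.1 in both, the smallest that 3 against 3 allows. The interaction was 0.07 ± 0.19 (adjusted p = 0.897 in edgeR), against 2 genes or 0.0151% called.

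Scgb3a1 per animal was at 0.0229, 0.0273 and 0.0140 per 10000 in WT normal, 0.0129, 0.00419 and 0.00649 in WT tumor-bearing, 0.0411, 0.0374 and 0.0536 in LAIR1KO normal, and 0.0248, 0.0211 and 0.0307 in LAIR1KO tumor-bearing lung. LAIR1KO animals lay above WT animals of the same lung state with no overlap, as for 14.8% of all genes in normal and 4.55% in tumor-bearing lung. Scgb3a1 passed the filter on low counts through the libraries where it was highest, so this separation is given as a description. The genotype log2 fold change was 0.90 ± 0.36 in normal (adjusted p = 0.156, edgeR) and 1.84 ± 0.46 in tumor-bearing lung (adjusted p = 0.736), neither past 0.05. The tumor differences were -1.55 ± 0.47 in WT and -0.61 ± 0.35 in LAIR1KO, opposite in sign to those of Scgb1a1. The interaction was 0.94 ± 0.59 (adjusted p = 0.510, edgeR).

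Scgb3a2 per animal was at 0.0229, 0.0152 and 0.0397 per 10000 in WT normal, 0.0323, 0.0566 and 0.0433 in WT tumor-bearing, 0.0454, 0.0478 and 0.0456 in LAIR1KO normal, and 0.0497, 0.114 and 0.0840 in LAIR1KO tumor-bearing lung. LAIR1KO normal animals lay above WT normal animals in these unscaled values, but the groups overlapped after edgeR's TMM scaling. The tumor-bearing animals of the genotypes overlapped on both scales. The genotype log2 fold change was 0.66 ± 0.38 in normal (adjusted p = 0.303, edgeR) and 0.87 ± 0.34 in tumor-bearing lung (adjusted p = 0.821). The tumor differences were 0.69 ± 0.38 for WT and 0.91 ± 0.33 for LAIR1KO. The interaction was 0.22 ± 0.51 (adjusted p = 0.866, edgeR). All 3 members passed the filter on low counts over all cells, Scgb3a1 through the libraries where it was highest.

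**Figure D5:**
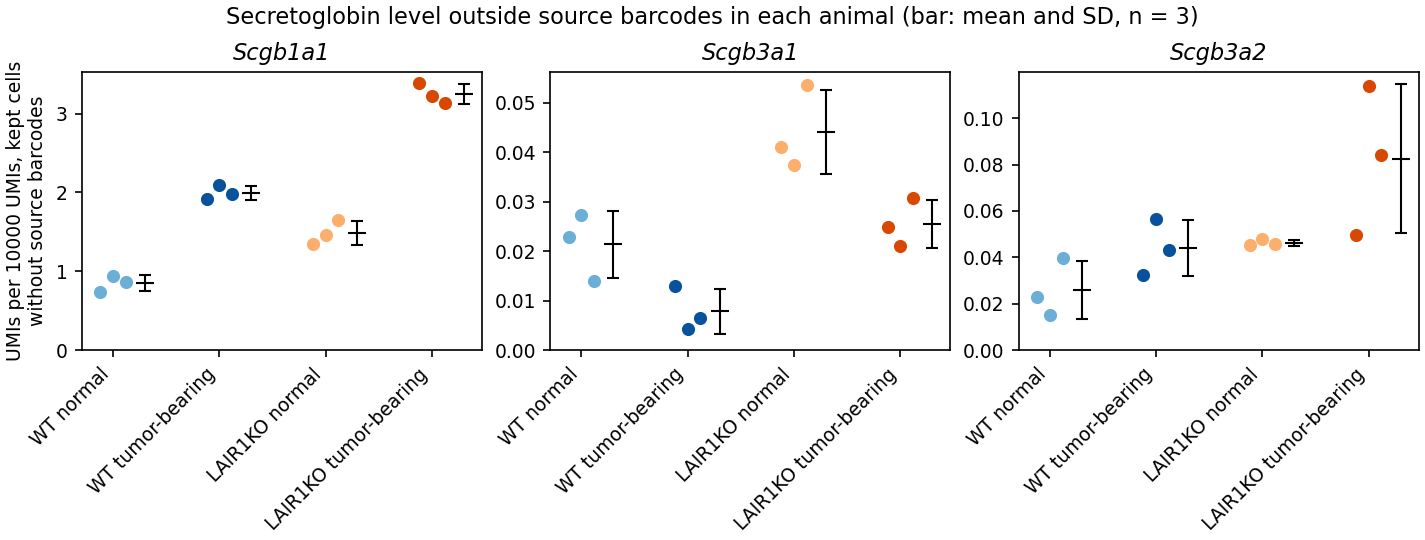
Level of each secretoglobin outside the source barcodes in each animal, in UMIs per 10000 UMIs on linear axes from 0 that differ between panels; black bars are the mean and SD of 3 animals. Scgb1a1 separates the 4 groups with LAIR1KO tumor-bearing animals highest, Scgb3a1 is lowest in WT tumor-bearing animals, and Scgb3a2 overlaps between the tumor-bearing genotypes.

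Within single classes Scgb1a1 was the only member with enough counts to test. Each group was 1 library, so the p-values within classes do not cover the spread between cell suspensions. The WT normal library also differed in sex from the LAIR1KO normal library. In neutrophil-like cells the animals were at 0.999, 0.989 and 0.946 per 10000 in WT normal and at 2.46, 2.13 and 1.81 in LAIR1KO normal lung, with no overlap, as for 7.95% of genes tested in the class. Scgb1a1 was higher in neutrophil-like cells of the LAIR1KO normal library, by 1.11 ± 0.18 on the log2 scale (adjusted p = 0.000143, edgeR), where 0.269% of genes were called higher. In tumor-bearing lung they were at 3.63, 2.83 and 3.16 in WT and at 5.65, 5.04 and 5.70 in LAIR1KO, again apart (8.60% of genes), with a log2 fold change of 0.81 ± 0.15 (adjusted p = 0.00185, edgeR; 0.179% of genes called higher).

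Endothelial cell-like cells were at 0.263, 0.307 and 0.514 per 10000 in WT normal and at 1.26, 0.915 and 0.853 in LAIR1KO normal lung. The animals did not overlap, as for 8.33% of genes. Scgb1a1 was higher in the LAIR1KO normal library by 1.53 ± 0.25 on the log2 scale (adjusted p = 0.000843, edgeR, with 0.258% of genes called higher). Without WT normal replicate 1 the adjusted p was 0.0626. In tumor-bearing lung the difference was 0.69 ± 0.19, with an adjusted p of 0.863 (0% of genes called).

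Fibroblast-like cells were at 0.433, 0.491 and 0.607 per 10000 in WT normal and at 1.30, 0.898 and 1.198 in LAIR1KO normal lung, with no overlap, as for 6.69% of genes. The log2 fold change was 1.03 ± 0.19 (adjusted p = 0.00396, edgeR; 0.185% of genes called higher), and without WT normal replicate 1 or LAIR1KO normal replicate 3 the adjusted p was 0.0694 or 0.0624. Interstitial macrophage-like cells, which express Lair1 in WT, were at 0.748, 1.16 and 0.999 in WT normal and at 1.53, 2.01 and 1.29 in LAIR1KO normal lung, also apart (7.31% of genes). In tumor-bearing lung they were at 2.0001, 2.17 and 2.20 in WT and at 3.18, 3.27 and 3.66 in LAIR1KO, apart as well (7.27% of genes).

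In interstitial macrophage-like cells Scgb1a1 was higher in the LAIR1KO library by 0.81 ± 0.19 on the log2 scale in normal lung (adjusted p = 0.0383, edgeR, with 0.348% of genes called higher). In tumor-bearing lung it was higher by 0.69 ± 0.14 (adjusted p = 0.0358, edgeR, with 0.0606% of genes called higher). Both calls were lost with Scrublet doublets removed (adjusted p = 0.0586 and 0.0637, edgeR), and with no barcode left out the adjusted p in normal lung was 0.961. The call in normal lung was also lost in some fits that left out 1 animal (adjusted p up to 0.483, without LAIR1KO normal replicate 2), and the call in tumor-bearing lung without any 1 of the 6 tumor-bearing animals (up to 0.273, without LAIR1KO tumor-bearing replicate 3).

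Over all classes that could be fitted, Scgb1a1 passed the threshold in 4 of 5 for the genotype in normal lung and in 2 of 10 in tumor-bearing lung. In the 8 tumor-bearing classes not past it, the share of genes called higher was 0% in endothelial cell-like, fibroblast-like, monocyte-like and natural killer cell-like cells, 0.0130% in alveolar type 2, 0.0745% in alveolar macrophage, 0.256% in T cell and 0.558% in B cell-like cells. The class not past it in normal lung was alveolar type 2 cell-like, at 0.999 ± 0.27 with an adjusted p of 0.136 over 3 WT and 2 LAIR1KO animals (0.665% of genes called higher). The interaction passed in 0 of 5 classes by edgeR; the endothelial cell-like interaction of -0.84 had an unadjusted p of 0.0138 and an adjusted p of 0.620. The interaction was called for 0.0286% of genes in endothelial, 0.0493% in fibroblast, 0.483% in alveolar type 2, 0.515% in interstitial macrophage and 0.836% in neutrophil-like cells. The genotype difference in WT and LAIR1KO normal lung goes along with the difference in sex between those libraries, and the 2 cannot be told apart there. The tumor difference in WT and the interaction also use the WT normal library, so tumor and sex cannot be told apart in them either; the other 3 libraries were female by Xist.

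The tumor difference per animal was above 0 in 7 of 7 fitted classes in WT (6 to 7 over the alternatives) and 5 of 5 in LAIR1KO. No share over all genes was counted for this. In alveolar type 2 cell-like cells it was 0.27 ± 0.22 in WT and 0.42 ± 0.27 in LAIR1KO on the log2 scale, the smallest of the fitted classes. Normal and tumor-bearing animals overlapped in this class in both genotypes. The LAIR1KO value differs in direction from the library ratio of 0.743 above, which included barcodes with no hashtag. The hashtagged LAIR1KO normal cells of this class numbered 18 and 22 in the 2 animals that could be used.

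None of the listed airway genes passed the edgeR test between genotypes. Outside the source barcodes the airway list is not confined to airway cells. Of 54992 Cbr2 UMIs there, 31377 were in alveolar type 2 cell-like barcodes with fewer than 10 Scgb1a1 UMIs, as were 502 of 1948 for Cyp2f2. The part of type 2 cells in the list's values was not tested. Of 29 airway secretory and club genes, 13 passed the filter outside the source barcodes, and 0 rose and 0 fell with genotype in either lung state by edgeR, with medians of -0.67 in normal and -0.32 in tumor-bearing lung against -0.03 and -0.01 over all genes. At an unadjusted p under 0.05 there were 8 and 2, and DESeq2 called 5 and 0. Over all 13238 genes 3238 and 778 were under that unadjusted p, and DESeq2 called 1019 and 3. Cbr2 was at -1.62 ± 0.33 in normal lung (adjusted p = 0.0513, edgeR) and Cyp2f2 at -1.34 ± 0.46 (adjusted p = 0.115). Sftpd, the surfactant protein D gene of club and type 2 cells, was at -1.48 ± 0.37 (adjusted p = 0.0675). Other listed genes, named here after their values were seen, were above 0: Sec14l3 at 0.71 ± 0.25 (adjusted p = 0.119, edgeR) in normal lung, and Cyp2f2 itself at 0.60 ± 0.43 (adjusted p = 0.934) in tumor-bearing lung. The summed level of the list per animal ran from 31.1 to 37.2 per 10000 in WT normal, 21.5 to 25.8 in WT tumor-bearing, 18.8 to 28.2 in LAIR1KO normal and 16.8 to 23.1 in LAIR1KO tumor-bearing lung. Agr2 was at 0 in all 4 groups and Gabrp in 3 of them.

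Scgb1c1, the other secretoglobin detected, had values of the opposite sign to Scgb1a1 that did not pass the test: its genotype log2 fold change was -1.02 ± 0.31 in normal lung (adjusted p = 0.0946, edgeR) and -0.52 ± 0.31 in tumor-bearing lung (adjusted p = 0.902). Of the 12 regulators 11 were tested, and 1 fell and 0 rose in LAIR1KO normal lung, where 0.544% of all genes fell. That gene was Elf3, at -1.90 ± 0.37 (adjusted p = 0.0497, edgeR). Leaving out any 1 replicate gave 0 to 2 regulators past the threshold, and DESeq2 gave 3, against 1019 over all genes. Nkx2-1, the lung lineage factor, was at -0.99 ± 0.36 (adjusted p = 0.131) and Cebpa at -0.95 ± 0.32 (adjusted p = 0.114). None of the 11 passed in tumor-bearing lung.

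Of 12 alveolar type 2 genes, 1 fell in LAIR1KO normal lung, Chil1, at -1.52 ± 0.28 (adjusted p = 0.0400, edgeR), and 0 rose, while 0.544% of all genes tested fell. In tumor-bearing lung 0 passed, and at an unadjusted p under 0.05 there were 12 in normal and 9 in tumor-bearing lung. Over all 13238 genes 3238 and 778 were under that unadjusted p, and DESeq2 called 1019 and 3. The count was 0 to 10 when 1 replicate was left out (10 without LAIR1KO normal replicate 3) and 11 by DESeq2. Sftpc was at -1.56 ± 0.37 (adjusted p = 0.0645), and the list's median was -1.41 in normal and -0.85 in tumor-bearing lung. The summed type 2 gene level was 309 to 572 per 10000 in WT normal and 97.5 to 242 in LAIR1KO normal animals, and in such sums fewer cells of a type and less RNA per cell cannot be told apart. Of 10 ciliated genes tested 0 passed in either genotype comparison, with a summed level of 0.790 to 2.30 in WT normal and 1.40 to 1.57 in LAIR1KO normal animals. By an unadjusted p under 0.05 no ciliated gene stood out, and DESeq2 called 0. Of 9 alveolar type 1 genes 0 passed in the genotype comparisons by edgeR (6 and 3 at an unadjusted p under 0.05, and 3 and 0 by DESeq2), with medians of 0.81 and -0.61.

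Red cell genes, a sign of blood in the suspension, summed to 0.0366 to 0.486 per 10000 in WT normal and 0.335 to 9.33 in LAIR1KO normal animals. Of the 4 tested, 0 passed by edgeR or DESeq2, or 2 without LAIR1KO normal replicate 3. For the genotype in normal lung 4 were under an unadjusted p of 0.05, against 3238 of all 13238 genes. Melanoma genes summed to at most 0.327 per 10000 in any normal animal, 0.266 to 0.316 in WT tumor-bearing and 0.300 to 1.94 in LAIR1KO tumor-bearing animals. Their part in the Scgb1a1 differences was not tested.

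Over the 45 units of class and library with at least 20 cells, the gene whose level was most like that of Scgb1a1 among 12110 genes was Scgb3a2, with a Spearman rho of 0.52 and a Pearson r of 0.61. B9d2 (0.52), Cdk5rap1 (0.51), Mpdu1 (0.49) and Mov10 (0.48) followed by rho. For Scgb3a2 the nearest was Scgb1a1, followed by Galc, B9d2, Vipas39 and Scyl2 at rho 0.45 to 0.46. Scgb3a1 was nearest to Sapcd1 (0.68), Fam43a (0.67), Iglc2 (0.64), Lmbrd1 (0.62) and Atg16l1 (0.62), and its rho with Scgb1a1 was -0.13, rank 10702 in its list. Scgb1a1 had a rho of 0.19 with Cyp2f2 and of -0.08 with Sftpc. Units share libraries and depth, so these values describe the pattern and carry no test.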

How the data were processed

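Lung cells were profiled with 10x Chromium 3' version 3 chemistry in 4 libraries, and the authors deposited raw UMI counts per gene and barcode for called cells, with 3 hashtag antibodies. Per the submitters' processing notes, Cell Ranger 4.0.0, STAR, R 4.0.0 and Seurat 3.2.0 were used with mm10. The unit used throughout is this deposited count. Barcodes with at least 300 genes and at most 10% mitochondrial UMIs were kept. Hashtags were called with HTODemux (Seurat 5.3.0, quantile 0.99). Barcodes were clustered with scanpy 1.11.5 and leidenalg 0.10.2 (2000 variable genes, 30 components, 15 neighbours, resolution 1), giving 34 clusters; the airway cluster was sub-clustered to part club from ciliated cells. Clusters were named from marker lists that include the members, so cluster-defining genes are not results. Scrublet marked 339 barcodes, which were kept except in 1 alternative.

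Counts outside the source barcodes were summed per hashtag replicate over all cells with 1 hashtag, or per class with at least 10 cells, and fitted with edgeR 4.0.16 (R 4.3.3) by the quasi-likelihood test over all 12 replicates with TMM scaling; genes with low counts were removed by filterByExpr. The SE was taken as the log2 fold change divided by the square root of the F statistic. Values per 10000 UMIs were not TMM-scaled. Exact permutation tests used scipy 1.17.1. Intervals on library sums are for counting error only. Alternatives were DESeq2 1.42.0, no TMM, no filter, cell number as library size, source thresholds of 50 and 500 UMIs, no barcode left out, barcodes without a hashtag, Scrublet doublets removed, another clustering (resolution 0.5) and leaving out each replicate. On simulated counts for the genotype comparison in normal lung (dispersion 0.1, 13195 genes) the fit made 4 false calls and found 84.7% of the 4-fold changes but only 9.09% of the 2-fold ones; at dispersion 0.02 (13148 genes) these shares were 98.0% and 77.8%.

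The 3 members were named always; other genes were the 5 most like each member, the 10 most abundant source genes at least 10 times above other barcodes, and from each list up to 4 with the most UMIs or passing the test. Genes compared within the Scgb3a1-high barcodes were chosen after their values were seen. The members and lists were chosen with earlier results of these data known.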

Additional observations from a re-analysis of the deposited data

Results flagged for a closer look

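Scgb1a1 was also found in barcodes that the comparisons did not use, at a higher level in tumor-bearing than in normal lung. In barcodes that failed the filters on gene number and mitochondrial share, source barcodes left out, there were 2.20 Scgb1a1 UMIs per barcode in WT tumor-bearing against 0.964 in WT normal lung. The same barcodes held 2.77 in LAIR1KO tumor-bearing against 0.913 in LAIR1KO normal lung. In passing barcodes with no hashtag call the level was 2.12 per 10000 UMIs in WT tumor-bearing against 1.03 in WT normal lung, and 3.61 in LAIR1KO tumor-bearing against 2.78 in LAIR1KO normal lung. In the failed and the no-hashtag barcodes alike the direction was that of the hashtagged cells; no test was made, since each value comes from 1 library.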

How the results depend on the processing

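Of 512 alternative values for Scgb1a1 within classes, 471 were counted as unchanged. For genotype and interaction this means the same direction and side of the threshold. For the tumor differences, which had no threshold, it means the same direction and a similar size. Of the rest, 12 reversed direction, 5 gained a call, 17 lost one and 7 moved in size. Neutrophil-like cells kept both genotype calls under every alternative run. Each group is 1 library, so suspension and group cannot be told apart, and depth limits Scgb3a1 and Scgb3a2, with 21 to 216 UMIs a library. No paired analysis was possible because the labels give no replicate numbers shared across groups. The cause of the changes below was not tested.

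Values are log2 fold changes. For the genotype in normal lung Scgb1a1 (0.67) passed 0.05 with no TMM (0.81, adjusted p = 0.0148, edgeR), DESeq2 (0.69, adjusted p = 0.000861), no filter (0.71, 0.0192), Scrublet doublets removed (0.69, 0.0460) and per cell (0.77, 0.0416). In tumor-bearing lung it passed with DESeq2 (0.76). Leaving out 1 replicate gave 0.57 to 0.80 and 0.67 to 0.79.

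With no barcode left out, the few source barcodes that carry a hashtag stay in. For genotype in normal lung Scgb1a1 was then 5.43, Scgb3a1 7.30 and Scgb3a2 7.66, and in tumor-bearing lung Scgb3a1 was 5.95. Scgb1a1 was -1.18 for genotype in tumor-bearing lung, -6.61 for the interaction, 2.91 for tumor in WT and -3.70 for tumor in LAIR1KO. Scgb3a1 was -1.35 for the interaction and -2.89 for tumor in LAIR1KO, and Scgb3a2 was -7.19 for the interaction, -3.90 for tumor in LAIR1KO and 3.29 for tumor in WT. Within classes, alveolar type 2 cell-like values were -1.06 (genotype, normal), -0.62 (genotype, tumor-bearing) and -0.01 (-0.0131, tumor in WT), and interstitial macrophage-like -3.53 (genotype, tumor-bearing).

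With a source threshold of 500 UMIs, tumor in LAIR1KO was 1.40 for Scgb3a1 and 1.59 for Scgb3a2, and genotype in tumor-bearing lung 3.86 and 1.57. The Scgb1a1 interaction was -0.10 with no TMM. Per cell, it was -0.21, with tumor at 0.94 in WT and 0.72 in LAIR1KO; tumor in LAIR1KO was -1.098 for Scgb3a1 and 0.43 for Scgb3a2, whose interaction was -0.027. With no hashtag needed, Scgb1a1 was 0.89 (genotype, normal), -0.29 (interaction) and 1.03 (tumor in LAIR1KO). Scgb3a1 was then 1.40 (genotype, normal), 0.43 (interaction) and -1.14 (tumor in WT), and Scgb3a2 1.56, -0.33 and 1.28.

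Leaving out 1 replicate, the interaction ran from -0.053 to 0.17 for Scgb1a1 (-0.027 without WT normal replicate 2, -0.053 without LAIR1KO normal replicate 1) and from -0.22 to 0.45 for Scgb3a2 (-0.22 without WT normal replicate 3, -0.016 without LAIR1KO tumor-bearing replicate 2). Tumor in WT ran from -2.00 to -1.17 for Scgb3a1 and from 0.47 to 1.14 for Scgb3a2. T cell-like genotype in tumor-bearing lung (-0.01) ran from -0.24 to 0.22, at 0.11, 0.018 and 0.22 without WT tumor-bearing replicate 1, WT tumor-bearing replicate 2 and LAIR1KO tumor-bearing replicate 1, and was 0.0165 with no TMM. The alveolar type 2 cell-like interaction (0.15) was -0.19 and -0.06 without LAIR1KO normal or tumor-bearing replicate 2, and the interstitial macrophage-like one (-0.12, range -0.28 to 0.13) was 0.09 and 0.13 without WT normal replicate 1 or LAIR1KO normal replicate 2.

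Classes past the threshold numbered 1 to 4 for genotype in normal lung (1 without WT normal replicate 1) and 1 to 3 in tumor-bearing lung (1 with Scrublet doublets removed or no barcode left out, 1 without any single tumor-bearing replicate). Genes past it over all cells numbered 95 for genotype in normal lung, 146 with no TMM, 1019 with DESeq2, 201 with no filter, 7 with only the 2 groups compared and 7 to 438 without 1 replicate. In tumor-bearing lung the count was 1, or 3 with DESeq2, and for the interaction 2, or 4 with no TMM, 72 with DESeq2, 6 with no filter and 1 in other fits.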
